A study of Mus musculus with 10 samples.

Results

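The 30 genes described here encode lysosomal proteins of the mouse: 8 proteases, 7 glycosidases, 7 lipid-handling proteins and other hydrolases, 6 membrane proteins and 2 regulators. They were chosen as a list of lysosomal enzyme and membrane genes, and all 30 were found among the 22053 Ensembl identifiers of the table and passed the filter of a mean of at least 0.5 FPKM that 13117 genes passed. RNA-seq was done on kidney glomeruli, the filtering tufts of the kidney, in 5 libraries from mice with the p.G799R missense change in Col4a3 (G799R) and 5 libraries from mice with wild-type Col4a3 (WT). Col4a3 encodes a type IV collagen chain, which is part of the basement membrane of the glomerulus. The labels used here state no zygosity, age, sex or strain and no method of isolating glomeruli. They also leave unsaid whether each library is a mouse of its own, so p-values measure only how much these libraries vary, a spread that may be technical. The title of the series mentions tauroursodeoxycholic acid, whose effect was not analysed here.

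Lysosomes are acidic organelles in which proteins, glycans and lipids that reach them by endocytosis or autophagy are broken down. Their enzymes are made in the endoplasmic reticulum, and many carry a mannose phosphate tag that routes them to the lysosome. In the kidney, proximal tubule cells are known for a large lysosomal system that degrades filtered protein taken up from the lumen, and podocytes, the epithelial cells of the glomerulus, depend on lysosomes and autophagy for their long life. The transcription factor TFEB and its relatives switch on many lysosomal genes together through a promoter element with the core CACGTG, known as the CLEAR element.

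The libraries differed in the levels of cell type markers. FPKM, a fragment count scaled for transcript length and library total, summed to 328864 to 340875 in G799R libraries and 320720 to 329150 in WT libraries. Col4a3 itself stood at 213 ± 12.4 FPKM in G799R and 138 ± 13.6 FPKM in WT (SD, n = 5 each), and since the change is a missense one, its mRNA level does not check the labels. Beside the marker counts here, 40.5% of all tested genes were called higher in G799R and 19.3% lower in FPKM as deposited. The defining podocyte markers were present, and all 19 were called higher in G799R as deposited. Under median-of-ratios scaling, described below, 14 of the 19 were called higher, beside 23.3% of all genes. The summed level of 38 tubule markers was 1446 to 3053 FPKM in G799R libraries and 9686 to 16474 FPKM in WT libraries, with 20 of 20 proximal and 17 of 18 distal markers called lower in G799R. The summed level of 57 podocyte, endothelial and mesangial markers was 12245 to 14429 FPKM in G799R and 6226 to 8938 FPKM in WT. Of 26 macrophage and myeloid markers 24 were tested and 15 were called higher as deposited, with a median log2 difference of 0.87. Under glomerular marker scaling, also described below, 8 of the 24 were called higher (median 0.28), beside 3.88% of all genes. Their summed level was 222 to 451 FPKM in G799R and 88.7 to 194 FPKM in WT, and Cd163 and Trem2 were listed at 0 in every G799R library. Genes induced by interferon summed to 885, 1116, 4197, 2958 and 509 FPKM in G799R libraries 1 to 5 and to 147 to 269 FPKM in WT libraries, so that G799R libraries 3 and 4 stood apart. The part of these shifts in the lysosomal results was not tested. In such bulk samples fewer cells of a type and less RNA per cell cannot be told apart.

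In FPKM as deposited, the lysosomal genes held members called in either direction. Together they made up 0.876% to 0.986% of all FPKM in G799R libraries and 0.869% to 0.935% in WT libraries, and these ranges overlapped. Their mean log2(FPKM + 1) was 5.62 ± 0.0425 in G799R and 5.62 ± 0.0101 in WT (SD, n = 5 each). Within the set, 11 genes were higher and 11 lower in G799R by limma with a Benjamini-Hochberg adjusted p under 0.05, and 8 were not called. Across all 13117 tested genes 59.8% were called, 40.5% higher and 19.3% lower, so the 11 of 30 called higher were near the share of all genes and the 11 of 30 called lower were above it. The members' median log2 difference, G799R minus WT on log2(FPKM + 1), was 0.11, beside 0.17 for all tested genes. For 9 members every G799R library lay above every WT library and for 7 every one lay below, while the groups overlapped for 14. Of all tested genes 26.1% lay wholly above and 15.7% wholly below.

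The direction of the higher members depended on the scaling, because the median of all genes moved with it. Under median-of-ratios scaling, which centred all genes at a median of 0.02, 5 members were called higher and 12 lower, where 48.8% of all genes were called, 23.3% higher and 25.5% lower. Glomerular marker scaling sets the mean log2 level of podocyte, endothelial and mesangial markers equal in every library, not each marker. Under it 0 members were called higher (0 at an unadjusted p under 0.05) and 22 lower. Of all genes 69.8% were then called, 3.88% higher and 66% lower, and the median of all genes was -0.44. All 11 members that were lower in FPKM as deposited were also called lower under both of these scalings. Both scalings lowered the median of all genes, from 0.17 to 0.02 and to -0.44, so lower calls could hardly be lost and this was no separate check of them. Without G799R libraries 3 and 4, 11 members were called higher and 10 lower, where 54.2% of all genes were called, 36.9% higher and 17.3% lower.

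**Figure D1:**
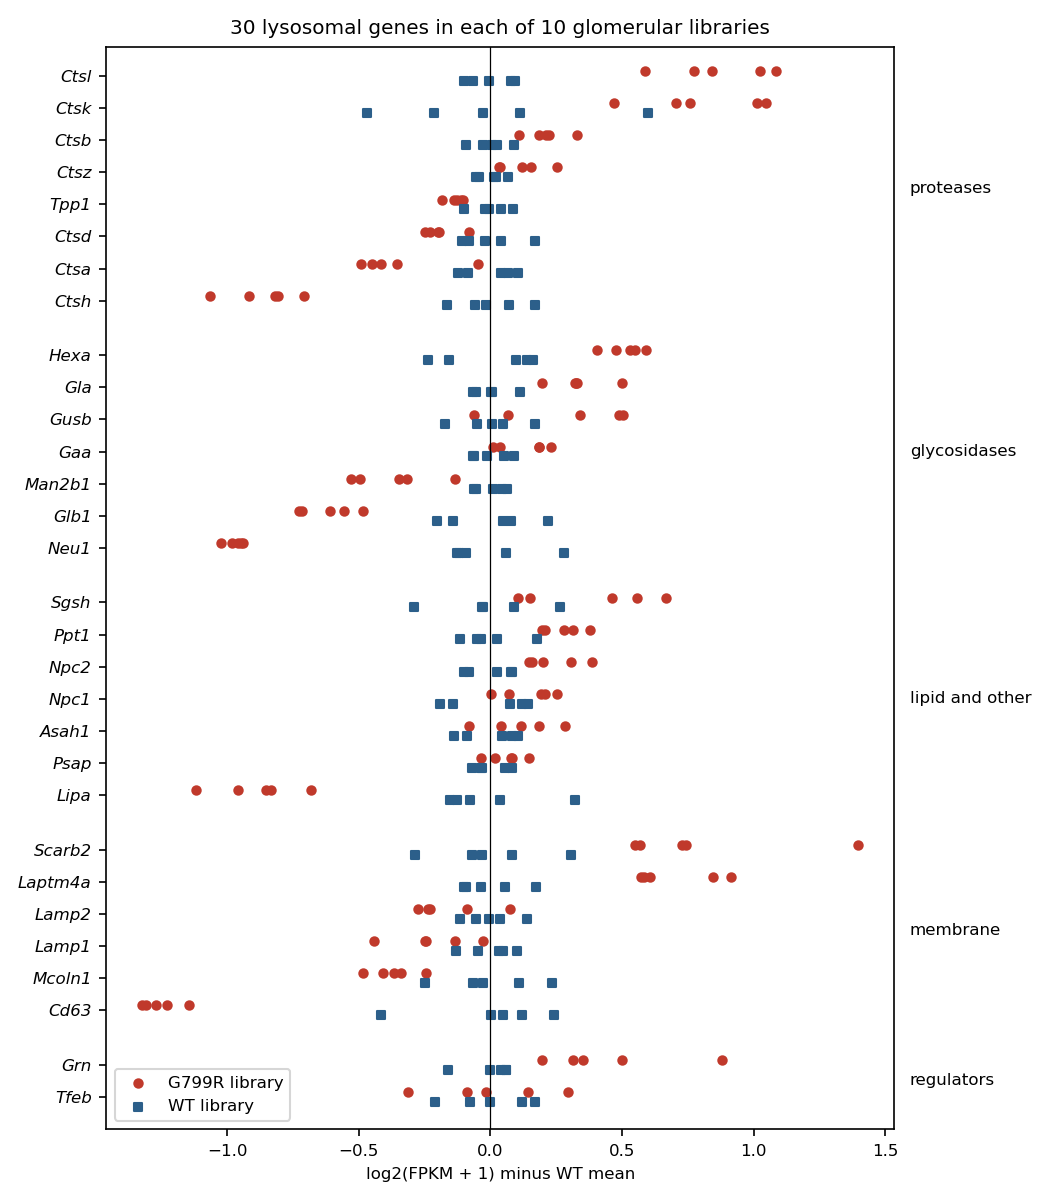
Level of each of the 30 lysosomal genes in each library as log2(FPKM + 1) minus the WT mean of that gene, with genes grouped by role. Red circles are the 5 G799R libraries and blue squares the 5 WT libraries. Cd63, Neu1, Lipa and Ctsh lie wholly to the left in G799R, while Ctsl, Scarb2 and Laptm4a lie wholly to the right.

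**Figure D2:**
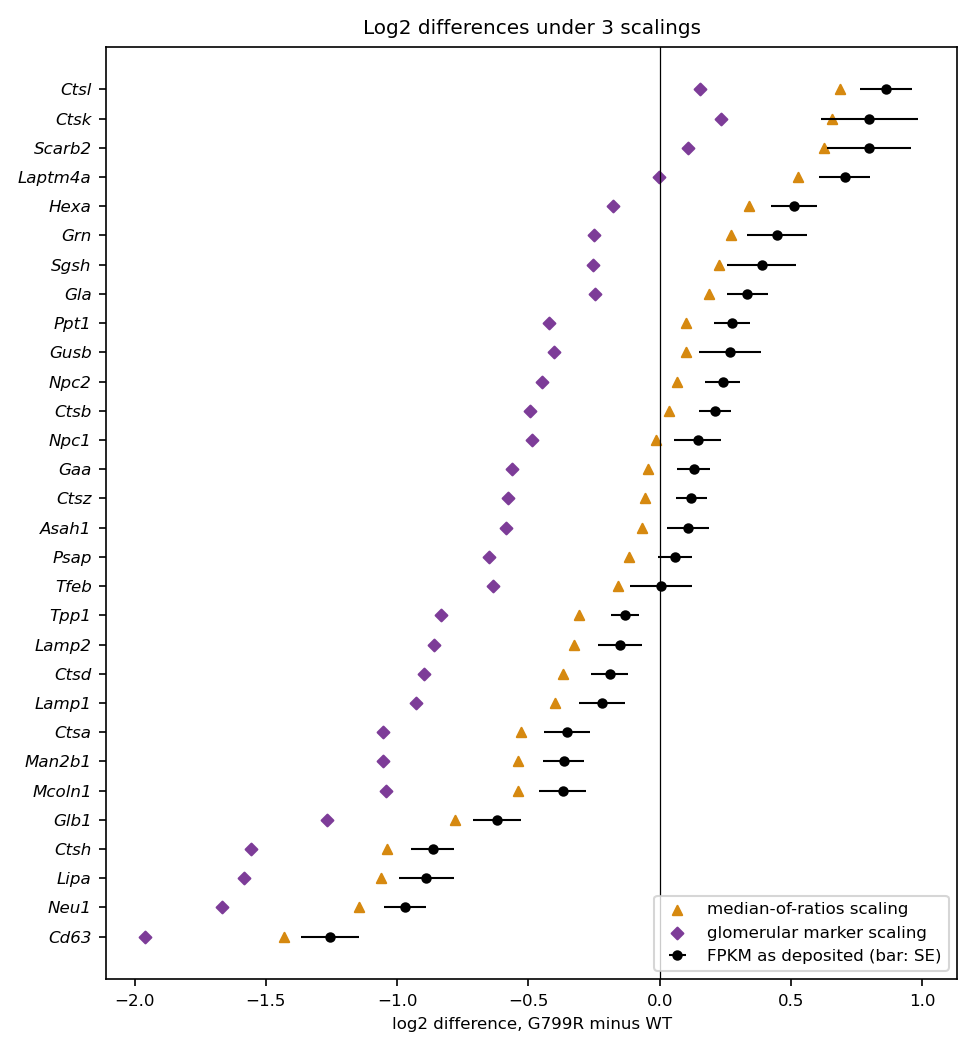
Log2 difference, G799R minus WT, of each gene in FPKM as deposited (black circles, bars are the SE), under median-of-ratios scaling (orange triangles) and under glomerular marker scaling (purple diamonds). The symbols shift to the left together, and only Ctsl, Ctsk and Scarb2 stay above 0 under glomerular marker scaling, where none of them was called.

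Promoter sequences from RefSeq (build GRCm38.p6, 250 bases before to 50 after the start) were matched by symbol for 26 of the 30 members. Asah1, Ctsb, Ctsh and Npc1 had no entry. The letters CACGTG, which read the same on both strands, were found in the windows of 9 of these 26 members and in 8.09% of all 27025 genes with a window. The longer GTCACGTG, searched on both strands and containing the shorter motif, was found in 7 of the 26 and in 2.55% of all genes. Below, stretches of 30 bases around the match are shown 5′ to 3′ on the strand of the gene. For Lamp1 a longer stretch is shown that ends at the last base before its start. The stretches set members called higher in FPKM as deposited (Ctsl, Gla and Sgsh) beside Gaa, which was not called, and members called lower. Capitals mark the match. Ctsa, Ctsd, Gla and Mcoln1 had 2 core matches each, of which 1 is shown, and Lamp1 had 4. The match left out is also of the longer motif for Ctsa, Ctsd and Mcoln1, but not for Gla. The starts are those of RefSeq and can differ from the GENCODE M21 positions used below. By those positions the stretches shown for Ctsl, Ctsd and Ctsa lie inside the gene.
Ctsl, chr13:64370739-64370768, minus strand: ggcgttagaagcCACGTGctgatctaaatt
Gla, chrX:134601182-134601211, minus strand: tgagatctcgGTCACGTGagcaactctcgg
Sgsh, chr11:119355522-119355551, minus strand: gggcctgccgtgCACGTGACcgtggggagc
Gaa, chr11:119267811-119267840, plus strand: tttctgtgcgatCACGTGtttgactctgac
Ctsd, chr7:142387908-142387937, minus strand: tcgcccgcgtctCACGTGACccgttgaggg
Ctsa, chr2:164833749-164833778, plus strand: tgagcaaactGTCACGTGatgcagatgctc
Mcoln1, chr8:3500436-3500465, plus strand: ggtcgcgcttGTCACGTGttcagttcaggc
Glb1, chr9:114401018-114401047, plus strand: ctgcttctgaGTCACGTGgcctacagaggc
Lamp1, chr8:13159088-13159160, plus strand: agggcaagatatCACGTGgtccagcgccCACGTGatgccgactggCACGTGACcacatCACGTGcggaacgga
The 9 members with the core included 3 called higher, 5 called lower and 1 not called. Their log2 differences ran from -0.62 for Glb1 to 0.86 for Ctsl. Of the 1177 tested genes with the core in their window, 37% were called higher and 21.5% lower. Of the 7 with the longer motif 2 were called higher in FPKM as deposited, Gla and Sgsh, and 5 were called lower, Ctsa, Ctsd, Glb1, Lamp1 and Mcoln1. Of the 478 tested genes with the longer motif in their window, 38.3% were called higher and 18.8% lower, near the shares of all genes. A match is a description of these letters and shows no binding.

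Among the proteases, Ctsl and Ctsk were higher and Ctsh was lower in G799R, and the others differed by smaller steps. Ctsl encodes cathepsin L, a cysteine endopeptidase with broad activity. It stood at 427, 375, 448, 509 and 531 FPKM in G799R libraries 1 to 5, against 264, 238, 248.6, 232 and 266 FPKM in WT libraries 1 to 5. Every G799R library was above every WT library, at 1.83-fold on average, with a log2 difference of 0.86 ± 0.10 (SE) and an adjusted p of 3.36e-05. Ctsl lies on chromosome 13 at 64359337 to 64370890 (GRCm38, GENCODE M21), and its exons share bases with a pseudogene and an antisense gene that are not listed in the table, so its value may hold reads of both. Exons of Ctsa, Ctsb, Ctsd, Ctsz, Glb1, Grn, Hexa, Npc1, Ppt1 and Sgsh also share bases with a neighbouring gene in that annotation, and how such reads were assigned is not stated in the labels. Under median-of-ratios scaling the log2 difference was 0.68 and still called, and under glomerular marker scaling 0.15 and not called.

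Ctsk encodes cathepsin K, a collagen-degrading protease best known from osteoclasts. It was the lowest of the 30 in WT, with 6.82, 4.24, 5.17, 6.64 and 5.41 FPKM in G799R libraries, against 2.27, 3.09, 4.74, 2.71 and 1.73 FPKM in WT libraries. WT library 3 lay above G799R library 2, so the groups overlapped by 1 library. Ctsk was 1.95-fold higher (log2 difference 0.80 ± 0.19 SE, adjusted p = 0.00351), and its log2 difference was 0.24 without a call under glomerular marker scaling. The summed level of macrophage markers was higher in the same G799R libraries in FPKM as deposited, and their part in this result was not tested. Ctsb, which encodes cathepsin B, a cysteine protease that also trims peptides from protein ends, averaged 128 ± 7.14 FPKM in G799R and 110 ± 5.23 FPKM in WT. All G799R libraries were above all WT libraries by a small step (log2 difference 0.21, adjusted p = 0.0115). That value was 0.03 without a call under median-of-ratios scaling, and under glomerular marker scaling it was -0.49 and called lower. Its call was also lost without G799R libraries 3 and 4 (0.18, adjusted p = 0.0538). Ctsz, a carboxypeptidase gene, averaged 61.7 ± 4.04 FPKM in G799R and 56.6 ± 1.98 FPKM in WT and was not called (adjusted p = 0.101).

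Ctsh, the gene of cathepsin H, an aminopeptidase, was 1.85-fold lower in G799R. Its values were 33.4, 33.7, 36.1, 31.1 and 27.9 FPKM in G799R libraries, against 53.1, 59.0, 57.2, 67.3 and 62.6 FPKM in WT libraries. The groups stood well apart, with a log2 difference of -0.86 ± 0.08 (SE) and an adjusted p of 9.34e-06. Ctsa, whose product protects the enzymes of Neu1 and Glb1 in a complex and is itself a carboxypeptidase, averaged 74.7 ± 9.91 FPKM in G799R and 95.3 ± 6.58 FPKM in WT, a log2 difference of -0.35 (adjusted p = 0.00543). G799R library 1, at 91.9 FPKM, reached into the WT range of 87.2 to 102 FPKM. Ctsd, the aspartic protease cathepsin D, and Tpp1, which removes tripeptides from protein ends, fell by 0.19 and 0.13 on the log2 scale, close to the threshold. The groups overlapped for Ctsd and were just apart for Tpp1. For Ctsd the adjusted p was 0.0335, and the call was lost when any 1 of G799R libraries 1, 2, 4 and 5 or WT libraries 3 and 5 was left out (-0.19 to -0.15). For Tpp1 it was 0.0459, and the call held only without WT library 1 and was lost without any other 1 library (-0.14 to -0.11, adjusted p up to 0.112).

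The glycosidases held both a group that fell and a group that rose. Neu1 encodes the lysosomal sialidase, which removes sialic acid from glycoproteins and glycolipids. It was at 35.9, 38.01, 36.9, 37.6 and 37.8 FPKM in G799R libraries, against 67.9, 77.0, 67.5, 90.0 and 69.3 FPKM in WT libraries. The G799R libraries agreed within a coefficient of variation of 2.33% and all lay below every WT library, with a log2 difference of -0.97 ± 0.08 (SE) and an adjusted p of 3.7e-06. Glb1, the beta-galactosidase that acts on ganglioside and keratan sulfate, had 9.57, 8.68, 9.04, 8.003 and 7.92 FPKM in G799R libraries, against 14.3, 14.6, 12.4, 16.2 and 11.8 FPKM in WT libraries. It was 1.60-fold lower without overlap (log2 difference -0.62, adjusted p = 0.000195). Neu1, Glb1 and Ctsa, whose products form the complex named above, were thus all lower. Man2b1, the alpha-mannosidase of glycoprotein breakdown, averaged 28.2 ± 3.25 FPKM in G799R and 36.4 ± 1.46 FPKM in WT without overlap (log2 difference -0.37, adjusted p = 0.00194).

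In the other direction, Hexa, the alpha subunit gene of beta-hexosaminidase A, which degrades a ganglioside that accumulates in Tay-Sachs disease, was higher in all G799R libraries. It stood at 38.2, 41.4, 40.2, 36.3 and 39.7 FPKM in G799R, against 29.997, 22.9, 29.1, 24.3 and 30.5 FPKM in WT. The step was 1.43-fold (log2 difference 0.51 ± 0.09 SE, adjusted p = 0.000484), still called under median-of-ratios scaling (0.34) and at -0.18 without a call under glomerular marker scaling. Gla, the alpha-galactosidase gene that is mutated in Fabry disease, a lysosomal disease with podocyte damage, averaged 5.12 ± 0.463 FPKM in G799R and 3.85 ± 0.243 FPKM in WT without overlap (log2 difference 0.33, adjusted p = 0.00405). The call was lost under median-of-ratios scaling (0.19, adjusted p = 0.0695) and under glomerular marker scaling (-0.25). Gaa, the glycogen-degrading alpha-glucosidase, and Gusb, the beta-glucuronidase, averaged 37.1 and 19.3 FPKM in G799R and 33.8 and 15.7 FPKM in WT and were not called (adjusted p = 0.0986 and 0.0665). Gusb was called higher without G799R library 3 (0.35), without G799R library 4 (0.32), without WT library 1 (0.31) and without G799R libraries 3 and 4 (0.44).

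Hexa and Glb1 moved apart within each library, a comparison that scaling a whole library leaves as it is. The ratio of Hexa to Glb1 FPKM was 3.99, 4.77, 4.45, 4.54 and 5.01 in G799R libraries, against 2.10, 1.57, 2.35, 1.498 and 2.57 in WT libraries. The log2 ratio differed by 1.13 (exact two-sided permutation p = 0.0079, the smallest that 5 against 5 libraries allow, adjusted p = 0.012 over 3 ratios). In G799R Hexa lay wholly above and Glb1 wholly below its WT range. This ratio therefore had to separate, and its p adds nothing to the calls of these genes. Ctsl and Ctsb also separated, with a ratio of 3.59, 2.91, 3.23, 4.06 and 4.15 in G799R libraries, against 2.44, 2.31, 2.24, 2.07 and 2.27 in WT libraries (difference of the log2 ratio 0.65, exact permutation p = 0.0079, adjusted p = 0.012). Ctsl ranged from 375 to 531 FPKM in G799R and 232 to 266 FPKM in WT. For Ctsb the ranges were 119 to 139 FPKM and 103 to 117 FPKM. With these ranges the Ctsl/Ctsb ratio had to separate too, however the libraries were matched, and its p adds nothing to them. Lamp2 and Lamp1 did not separate detectably. Their ratio was 0.602 to 0.672 in G799R and 0.572 to 0.643 in WT, with overlapping groups (0.07, exact permutation p = 0.13, adjusted p = 0.13), but without WT library 4 the adjusted p was 0.032 (0.10).

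**Figure D3:**
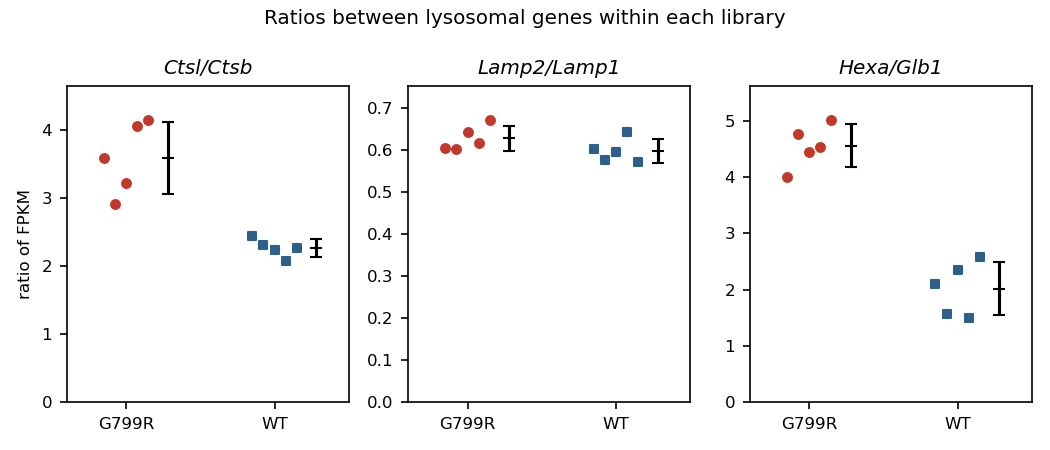
Ratio of FPKM between 2 lysosomal genes within each library, with G799R libraries as red circles and WT libraries as blue squares and the mean ± SD as a black bar beside each group (n = 5 each). Ctsl/Ctsb and Hexa/Glb1 are above the WT range in all 5 G799R libraries, and Lamp2/Lamp1 overlaps.

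Among the genes of lipid handling and other hydrolysis, Lipa was the only one called lower. It encodes acid lipase, which frees cholesterol and fatty acids from lipoprotein lipids. Its values were 44.1, 39.1, 32.3, 39.6 and 36.2 FPKM in G799R libraries, against 65.2, 67.5, 64.1, 89.5 and 73.2 FPKM in WT libraries. It was 1.88-fold lower without overlap (log2 difference -0.89 ± 0.10 SE, adjusted p = 3.87e-05). Sgsh, a sulfamidase of heparan sulfate breakdown, Ppt1, which removes palmitate from proteins, and Npc2, a soluble carrier that passes cholesterol to the membrane protein of Npc1, were called higher in FPKM as deposited.

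Sgsh averaged 11.6 ± 2.14 FPKM in G799R and 8.61 ± 1.33 FPKM in WT with overlap (log2 difference 0.39, adjusted p = 0.0245). Its call was lost without any 1 of G799R libraries 1, 2 and 5 or WT library 4 (0.32 to 0.37, adjusted p 0.0517 to 0.0605). Ppt1 averaged 64.3 ± 3.46 FPKM in G799R and 53.0 ± 4.26 FPKM in WT (log2 difference 0.28, adjusted p = 0.00454), and Npc2 averaged 35.5 ± 2.66 FPKM in G799R and 29.9 ± 1.84 FPKM in WT (0.24, adjusted p = 0.0101), both without overlap. None of these 3 was called under median-of-ratios scaling, and under glomerular marker scaling Ppt1 and Npc2 were called lower (-0.42 and -0.45) and Sgsh stood at -0.25. Ppt1 shares exon bases with Cap1 on the other strand, which averaged 115 FPKM in G799R and 78.5 FPKM in WT. The part of Cap1 reads in the Ppt1 values was not tested. Psap, the precursor of the saposins that present sphingolipids to their hydrolases, was among the most abundant of the 30, at 287 to 326 FPKM in G799R and 280 to 312 FPKM in WT, and was not called (log2 difference 0.06, adjusted p = 0.453). Asah1, the acid ceramidase, and Npc1, the cholesterol exporter, were also not called (0.11 and 0.15, adjusted p = 0.256 and 0.181). For Psap, Asah1 and Npc1 the groups overlapped.

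Among the membrane proteins Cd63 showed the largest fall of the 30 genes. It encodes a tetraspanin of late endosomes, lysosomes and exosomes. It stood at 106, 99.7, 101, 103 and 113 FPKM in G799R libraries, against 188, 273, 251.6, 297 and 260 FPKM in WT libraries. All G799R libraries lay far below all WT libraries, at 2.43-fold lower, with a log2 difference of -1.26 ± 0.11 (SE) and an adjusted p of 5.12e-06. WT library 1, the lowest of its group for Cd63, also had the lowest tubule score of the WT libraries (mean log2(FPKM + 1) of 6.05, against 6.44 to 6.76 in the others). Among G799R libraries, with scores of 3.58 to 4.49, the order was another. Cd63 was highest there in library 5 (113 FPKM, score 3.68) and lowest in library 2 (99.7 FPKM, score 4.36). With the tubule score as a covariate the limma log2 difference of Cd63 was -0.75 ± 0.415 (SE, adjusted p = 0.888). That score separates the groups, so this fit is no test of whether tubule content set the Cd63 level, which was not tested otherwise.

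Scarb2 and Laptm4a went the other way. Scarb2 encodes the receptor that carries glucocerebrosidase to the lysosome, and loss of this gene is known to cause a kidney disease with collapsing glomeruli in humans. It was at 43.7, 38.6, 70.2, 44.2 and 39.0 FPKM in G799R libraries, against 32.4, 25.4, 27.6, 21.2 and 24.8 FPKM in WT libraries. All G799R libraries were above all WT libraries, and G799R library 3 stood far above the other 4. Scarb2 was 1.80-fold higher (log2 difference 0.80 ± 0.16 SE, adjusted p = 0.00141), and 0.65 with a call without library 3. Laptm4a, a small membrane protein of late endosomes and lysosomes, stood at 509, 514, 647, 615 and 521 FPKM in G799R libraries, against 386, 319, 356, 321 and 334 FPKM in WT libraries. It was the most abundant of the 30 in G799R and 1.64-fold higher without overlap (log2 difference 0.70 ± 0.10 SE, adjusted p = 0.00011). Under median-of-ratios scaling both remained called, at 0.62 and 0.53, and under glomerular marker scaling they were at 0.11 and -0.0046 without a call. G799R libraries 3 and 4, the highest for Laptm4a, also had the highest interferon gene levels, and a link was not tested.

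Lamp1 and Lamp2, whose heavily glycosylated products line the lysosomal membrane, were among the most abundant members and differed little. Lamp1 averaged 350 ± 36.8 FPKM in G799R and 406 ± 25.3 FPKM in WT with overlapping groups. Its log2 difference of -0.22 had an adjusted p of 0.049, and the call held only without G799R library 3 or WT library 1 and was lost without any other 1 library (-0.24 to -0.16, adjusted p up to 0.115). Lamp1 shares exon bases with Grtp1 on the other strand, which averaged 2.15 FPKM in G799R and 9.68 FPKM in WT, and the labels name no strand-specific kit. Lamp2 averaged 219 ± 22.9 FPKM in G799R and 243 ± 16.5 FPKM in WT and was not called (-0.15, adjusted p = 0.137), though it was called lower without G799R library 3 (-0.21, adjusted p = 0.0347), and without G799R libraries 3 and 4 (-0.25). It was also called lower under median-of-ratios scaling (-0.33), quantile normalisation (-0.22) and glomerular marker scaling (-0.86). Mcoln1, a cation channel that releases calcium from lysosomes, had 14.2 to 17.0 FPKM in G799R and 17.0 to 24.1 FPKM in WT, and was lower (log2 difference -0.37, adjusted p = 0.00451) with the groups overlapping by 1 library.

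The regulators split. Tfeb itself was not called, at 11.7, 8.70, 7.30, 9.18 and 10.4 FPKM in G799R libraries, against 9.29, 10.6, 7.92, 8.78 and 10.2 FPKM in WT libraries. The groups covered the same range, and the log2 difference was 0.0038 ± 0.12 (SE; adjusted p = 0.98), with -0.16 and no call after median-of-ratios scaling and -0.64, called lower, after glomerular marker scaling. Its protein is controlled mainly by phosphorylation and nuclear entry, which mRNA does not show. Grn encodes progranulin, a secreted and lysosomal glycoprotein that supports lysosomal function. It stood at 78.4, 76.4, 114, 87.0 and 70.3 FPKM in G799R libraries, against 63.1, 61.2, 63.9, 54.6 and 63.9 FPKM in WT libraries. Every G799R library was above every WT library, and library 3 was the highest, as it was for Scarb2 and for the interferon genes. Grn was 1.39-fold higher (log2 difference 0.45 ± 0.11 SE, adjusted p = 0.00587), and was not called under median-of-ratios scaling (0.27) or glomerular marker scaling (-0.25).

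By mean FPKM, a per-length unit, 19 of the 30 genes were within 2 places of each other in the orders of both groups. In G799R the most abundant were Laptm4a (561 FPKM), Ctsl (458), Lamp1 (350), Psap (307) and Lamp2 (219), and in WT they were Lamp1 (406 FPKM), Laptm4a (343), Psap (294), Cd63 (254) and Ctsl (250). In WT the means of Cd63, Ctsl and Lamp2 (243 FPKM) lay within 1 SD of Cd63, 40.7 FPKM, of each other, so their order is not resolved. Cd63 took place 8 in G799R and place 4 in WT. Neu1 took place 18 in G799R and place 10 in WT, and Scarb2 took place 14 in G799R and place 22 in WT.

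**Figure D4:**
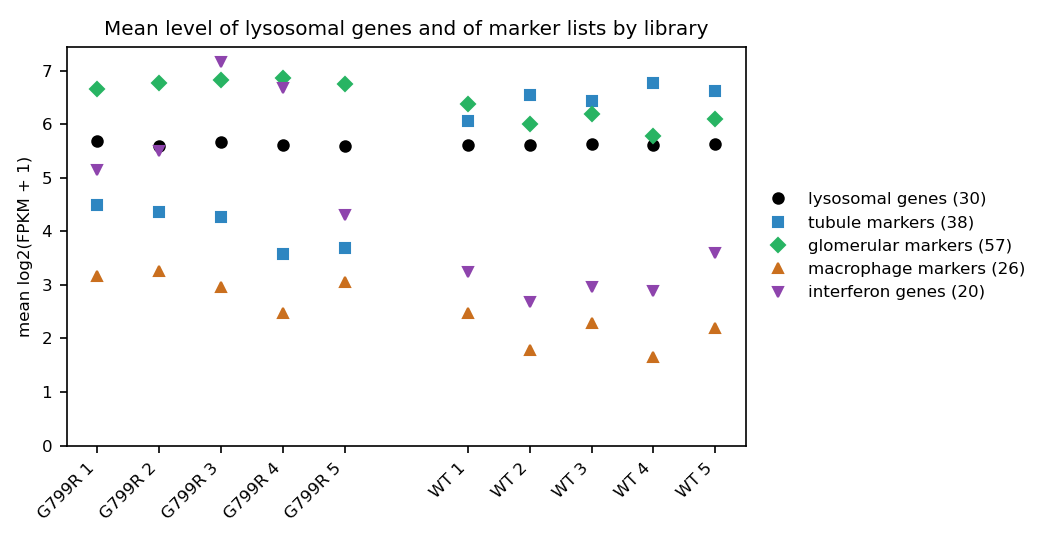
Mean log2(FPKM + 1) of the 30 lysosomal genes (black circles), tubule markers (blue squares), glomerular markers (green diamonds), macrophage markers (orange triangles) and interferon genes (purple inverted triangles) in each of the 5 G799R and 5 WT libraries. The lysosomal genes stay between 5.58 and 5.68 in all 10 libraries, while tubule markers lie at 3.58 to 4.49 in G799R and 6.05 to 6.76 in WT.

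Other genes of the lysosomal pathway were read from 7 further lists holding 128 genes, all of which were tested. In FPKM as deposited 38 of them were called higher and 42 lower, with a median log2 difference of 0.03. Of all tested genes 40.5% were called higher and 19.3% lower as deposited, and the counts of each list below are to be read beside these shares. The shares were 23.3% and 25.5% under median-of-ratios scaling, and 3.88% and 66% under glomerular marker scaling. Median-of-ratios scaling gave 17 higher and 55 lower, and glomerular marker scaling gave 4 higher and 111 lower, so the counts of rising genes below hold for FPKM as deposited. Of 30 other hydrolases 9 rose and 13 fell. Lgmn, an asparaginyl endopeptidase that activates cathepsins, was 3.14-fold lower, at 66.1 ± 6.99 FPKM in G799R and 207 ± 35.4 FPKM in WT (adjusted p = 2.19e-06). Manba, a beta-mannosidase gene, was 1.76-fold lower. Of 20 other membrane proteins 9 rose and 5 fell. Slc29a3, a nucleoside exporter, and Slc17a5, a sialic acid exporter, were 2.15-fold and 1.76-fold lower, while Ostm1, the partner of a lysosomal chloride exchanger, was 1.35-fold higher in FPKM as deposited and at -0.26 without a call under glomerular marker scaling.

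The proton pump that acidifies the lysosome is the V-ATPase. Of 17 of its subunit genes that are widely expressed, 9 fell and 2 rose, with a median log2 difference of -0.40, and glomerular marker scaling gave 16 lower and 1 higher. Of all tested genes 19.3% fell and 40.5% rose as deposited, against 66% and 3.88% under that scaling. Atp6v1a and Atp6v1b2, which form the catalytic head, averaged 40.8 ± 5.63 and 28.5 ± 1.75 FPKM in G799R, against 91.1 ± 11.7 and 62.4 ± 10.05 FPKM in WT, and were 2.23-fold and 2.19-fold lower (adjusted p = 1.06e-05 and 5.78e-06). Atp6v1e1, of the stalk, was 1.62-fold lower. All 5 subunit genes known from acid-secreting intercalated cells of the collecting duct fell, with a median of -2.22. Among them Atp6v1b1, Atp6v1c2 and Atp6v0a4 were 6.25-fold, 6.26-fold and 5.11-fold lower. One of the 5, Atp6v1g3, is also in the distal tubule marker list, whose markers were lower in the same libraries.

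Beside the counts of this paragraph, 40.5% of all tested genes rose and 19.3% fell as deposited. The shares were 23.3% and 25.5% after median-of-ratios scaling, and 3.88% and 66% after glomerular marker scaling. Of 12 genes of mannose phosphate tagging and sorting 4 rose and 3 fell in FPKM as deposited, where median-of-ratios scaling called 0 higher and 3 lower. Gga2, an adaptor at the Golgi, was 2.71-fold lower at 3.58 ± 1.36 FPKM in G799R and 9.72 ± 1.46 FPKM in WT (adjusted p = 0.000163), while its relative Gga1 and the adaptor subunit gene Ap3d1 were 1.248-fold and 1.21-fold higher in FPKM as deposited and called lower under glomerular marker scaling (-0.37 and -0.42). Of 20 genes of the TFEB relatives and of the mTORC1 complex that restrains them, 6 rose and 5 fell in FPKM as deposited, against 2 and 10 after median-of-ratios scaling and 0 and 18 after glomerular marker scaling. Tfe3, the relative of Tfeb, was at 18.6, 20.4, 18.6, 20.05 and 18.3 FPKM in G799R libraries, against 14.3, 12.4, 12.5, 9.40 and 13.4 FPKM in WT libraries. The groups did not overlap (log2 difference 0.60 ± 0.10 SE, adjusted p = 0.000369), although the value was -0.07 without a call under glomerular marker scaling. Rragd, a GTPase that recruits mTORC1 to the lysosome, and Fnip2, which acts with folliculin on such GTPases, were 1.87-fold and 1.66-fold lower. Of 24 autophagy genes 8 rose and 2 fell in FPKM as deposited, against 4 and 5 after median-of-ratios scaling, with Optn, a receptor of selective autophagy, and Atg13, of the initiating kinase complex, 1.45-fold and 1.28-fold higher and Gabarapl1, which coats autophagosomes, 1.57-fold lower. Under glomerular marker scaling Optn was at -0.16 without a call and Atg13 was called lower (-0.34).

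**Figure D5:**
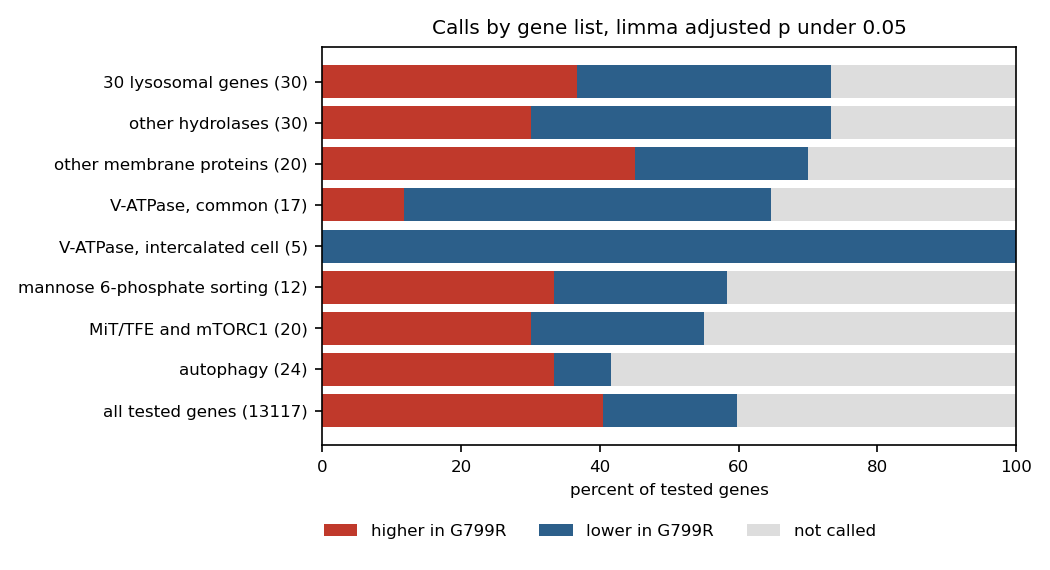
Share of tested genes called higher in G799R (red), lower in G799R (blue) or not called (grey) by limma at an adjusted p under 0.05, for the 30 lysosomal genes, 7 further pathway lists and all 13117 tested genes, with the number of genes in brackets. In FPKM as deposited, 11 of the 30 lysosomal genes were called higher and 11 lower, beside 40.5% and 19.3% of all tested genes. All 5 intercalated-cell subunit genes of the V-ATPase were lower.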

How the data were processed

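The authors deposited 1 table of FPKM values for 10 libraries. The tools named in the submitters' processing notes, without role or order, are RSEM, StringTie 1.3.1, HISAT2, Bowtie2 2.2.8 and fastp 0.18.0. Build and annotation: not given in the sources used here. TRIzol served for RNA extraction, per the labels' protocols, and libraries were made with a NEBNext Ultra kit. Columns were matched through each library's label, and 0 were of other samples. Of 22053 identifiers 21963 had a symbol. FPKM gives no total count, so the absolute depth is unknown and no interval for counting error is given; steps between low values gave a relative depth of 0.861 to 1.03 in G799R and 0.99 to 1.19 in WT, set against WT library 1. FPKM is relative, so a gain in one cell type lowers the genes of others.

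Values were transformed to log2(FPKM + 1), which understates changes of low genes, and 13117 genes (mean FPKM of 0.5 or more) were tested two-sided with limma-trend (limma 3.58.1, R 4.3.3) across all genes with Benjamini-Hochberg adjustment at 0.05. Folds are ratios of mean FPKM. Of all genes 7845 were called (8452 at an unadjusted p under 0.05). The code was tested on simulated data. Ratios were tested by exact permutation (scipy 1.17.1). Members, lists and alternatives were chosen with earlier results of these data known. All members were named, and from each further list the 3 called genes with the smallest p, of which 1 is not reported here. Alternatives were pseudocounts of 0.1 and 0.5, no filter and one of 2 FPKM, median-of-ratios, quantile and glomerular marker scaling, the tubule score as covariate, blocking on replicate number, and leaving out each library or G799R libraries 3 and 4. No gene set test was run.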

Additional observations from a re-analysis of the deposited data

Results flagged for a closer look

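A library stood apart from the other 4 of its group by Dixon's criterion for 5 samples (0.71) in 2 of 66 groups of values checked, where chance gives about 1 in 20. Scarb2 in G799R library 3 was at 70.2 FPKM, with the other G799R libraries at 38.6 to 44.2 FPKM and WT libraries at 21.2 to 32.4 FPKM. Ctsa in G799R library 1 was at 91.9 FPKM, with the other G799R libraries at 67.4 to 74.1 FPKM and WT libraries at 87.2 to 102 FPKM. Interferon genes were highest in G799R library 3 and the tubule score was highest among G799R libraries in library 1 (4.49), and the part of either was not tested.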

How the results depend on the processing

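The 22 calls among the 30 genes (11 higher, 11 lower) became 17 to 22 under every alternative that kept all libraries except the tubule covariate, and 18 to 23 (higher 10 to 12, lower 8 to 11) when each library was left out. Without G799R libraries 3 and 4 they were 21, of which 19 were the same genes. Median-of-ratios scaling left 5 higher, and glomerular marker scaling left 0 higher and 22 lower. With the tubule score as a covariate limma called 0 of all genes, 0 of the 30 (0 higher, 0 lower) and 0 of the 128 pathway genes (738, 1 and 6 at an unadjusted p under 0.05). The tubule score separates the groups, and with it the members' median SE was 0.324, against 0.0874 without it.

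Under glomerular marker scaling the sign turned for Asah1 (-0.59), Ctsb (-0.49), Ctsz (-0.58), Gaa (-0.56), Gla (-0.25), Grn (-0.25), Gusb (-0.40), Hexa (-0.18), Laptm4a (-0.0046), Npc1 (-0.49), Npc2 (-0.45), Ppt1 (-0.42), Psap (-0.65), Sgsh (-0.25) and Tfeb (-0.64). Under median-of-ratios scaling it turned for Asah1 (-0.066), Ctsz (-0.056), Gaa (-0.044), Npc1 (-0.013), Psap (-0.12) and Tfeb (-0.16), and under quantile normalisation for Psap (-0.041) and Tfeb (-0.035). With the tubule covariate it turned for Ctsa (0.33), Ctsd (0.053), Lamp1 (0.15), Lamp2 (0.10), Man2b1 (0.33), Mcoln1 (0.11) and Npc1 (-0.14). Tfeb ran from -0.069 to 0.083 when each library was left out, and turned without G799R library 1 (-0.069) or 5 (-0.031) or WT library 3 (-0.049) or 4 (-0.015). Both call and sign were kept without any 1 library by 23 of the 30. Lamp1 was not called with no filter (adjusted p = 0.0879), and quantile normalisation ended the calls of Ctsb (0.12) and Npc2 (0.14).

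A replicate block called 7388 of 13117 genes (4937 higher, 2451 lower). It called 20 of the 30 members (12 higher, 8 lower), with Ctsd, Lamp1 and Tpp1 lost and Gusb gained. Same-numbered libraries had deviations correlated at -0.0846 to 0.0484, 0 of 5 over 0.1, so the numbers were not taken to pair them. For Ctsl/Ctsb and Hexa/Glb1, the log2 ratio differed by 0.63 and 1.14 without G799R libraries 3 and 4 (adjusted p = 0.054) and by 0.65 and 1.13 with the replicate block (adjusted p = 0.094), where the unadjusted p of both was the smallest that those designs allow. Leaving out each library gave 0.60 to 0.72 for Ctsl/Ctsb, 1.04 to 1.22 for Hexa/Glb1 and 0.04 to 0.10 for Lamp2/Lamp1, the last reaching the threshold without WT library 4 (0.10). All genes called ranged from 6990 to 8169 and pathway genes from 71 to 81 when each library was left out.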
